A study of Mus musculus with 2 samples.

Results

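The genes that decide whether a cell leaves the G1 phase were followed here in newborn mouse hindbrain. They are the D-type cyclins Ccnd1, Ccnd2 and Ccnd3, their kinases Cdk4 and Cdk6, the inhibitors Cdkn1a, Cdkn1b and Cdkn2c, the pocket protein gene Rb1 and the factor gene E2f1. The 10 genes were chosen by name for their roles and found by Ensembl identifier among 43309 nuclear mouse genes in the gene tables. The samples are 2 libraries of hindbrain RNA from B6NCrl mice at postnatal day 0, labelled pup 1 (replicate 1) and pup 3 (replicate 2). They carry no treatment or allele in the labels, their sex was not collected, and both form 1 group. The labels name different pups but give both the same donor record. The input to a library was 13 pg of RNA, called 1 cell-equivalent in the labels. The RNA was extracted from hindbrain tissue, so a library holds a very small draw from a mixture of cell types.

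Mitogen signals raise the D-type cyclins, which bind and activate Cdk4 and Cdk6, and these kinases phosphorylate the pocket protein Rb1. Phosphorylated Rb1 lets go of E2F factors, which then switch on the genes of DNA replication. Inhibitors of the INK4 family such as Cdkn2c (p18) bind Cdk4 and Cdk6, while those of the Cip/Kip family such as Cdkn1a (p21) and Cdkn1b (p27) bind cyclin-kinase complexes. In the newborn hindbrain neurons have left the cell cycle, while granule neuron precursors of the cerebellum and glial progenitors still divide.

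The pup 1 library held 35462381 expected counts (reads assigned to genes, with shared reads split among transcripts) and the pup 3 library 29866728. Levels below are in TPM, shares of all transcripts after scaling by length, set to a fixed total over the nuclear genes. A gene was called detected at 5 expected counts or more in a library. For a transcript of 1000 nt, a floor of 3 counts lies at 0.145 TPM (pup 1) and 0.164 TPM (pup 3). Of the marker lists, 5 of 5 neuronal, 6 of 6 radial glia and astrocyte and 6 of 6 cycling cell markers were detected in both libraries. The hindbrain position markers were detected for 4 of 5, with Hoxb2 at 0 counts. Of the granule cell lineage markers 3 of 5 were detected in both, with Atoh1 at 0 counts in both libraries and Barhl1 at 0 in pup 1. Detection in both was 3 of 4 for oligodendrocyte precursor, 3 of 4 for endothelial, 2 of 4 for microglial, 2 of 3 for erythroid and 2 of 3 for choroid plexus markers. All 4 forebrain markers were at 0 counts. The summed level of the cycling cell markers was 328 TPM in pup 1 and 448 in pup 3, but its members did not move together, with Pcna at 23.4 and 154 TPM and Cdk1 at 108 and 56.7 TPM. The summed level of the 3 erythroid markers was 508 and 1758 TPM. The part of these differences in the values below was not tested. In such bulk RNA, fewer cells of a type and less RNA per cell cannot be told apart.

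All 10 genes had counts in at least 1 library, and 7 of 10 were detected in both. Among 21461 protein-coding genes 37.8% were detected in both libraries, and among the 11905 detected in at least 1 library 68.1% were. Cdk6 and Cdkn2c were detected in pup 1 alone, and E2f1 in pup 3 alone. The log2 ratio of pup 3 over pup 1, taken after adding 1 TPM, had a median of -0.33 over the 10 genes and -0.17 over all detected nuclear genes. A difference of 4-fold on this scale was counted where a gene had at least 50 counts in 1 library. It was passed by 3 of the 9 genes that qualified, beside 40.7% of 12300 nuclear genes. The count was 2, without Cdkn1b, when counts were scaled by CPM, edgeR TMM or DESeq2 size factors, and 0 with a pseudocount of 5 TPM. E2f1 was the 1 gene higher in pup 3, a direction taken by 16.7% of all genes, and Cdk6 and Cdkn1b were the 2 higher in pup 1, a direction taken by 24.0%. These shares are those of 2 libraries of 1 group, so no test between groups exists and no p-value is given. A difference between the pups and the sampling of 13 pg of RNA cannot be told apart in this design.

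**Figure D1:**
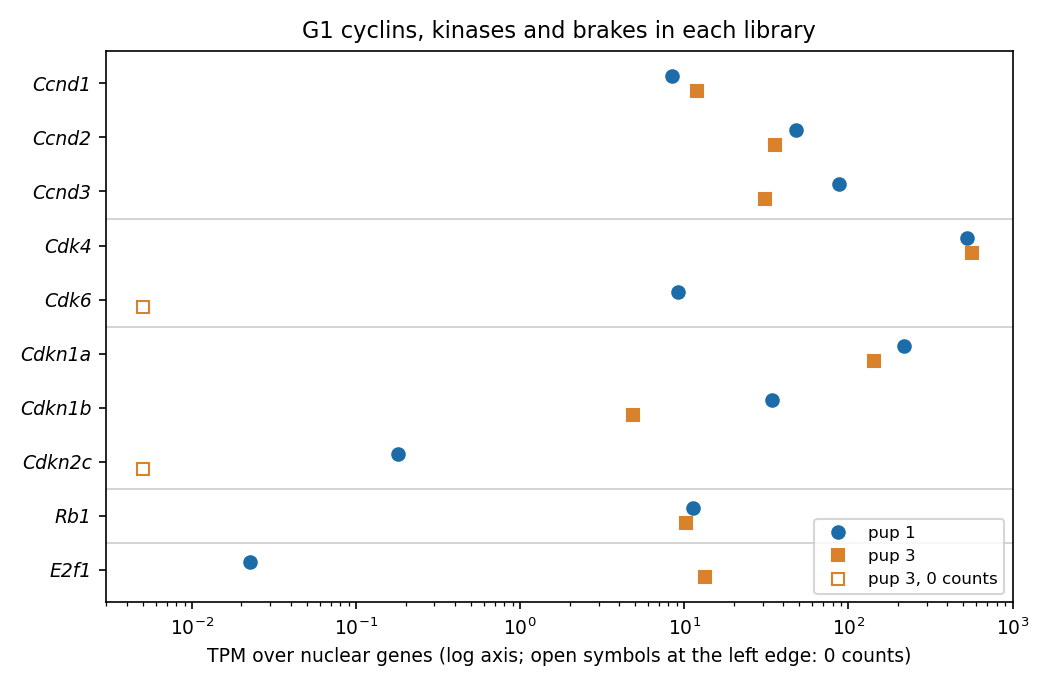
Level of each gene in TPM over nuclear genes (log axis) in pup 1 (circles) and pup 3 (squares), with lines between the roles. Cdk4 lies at 526 and 566 TPM, Cdkn1a at 218 and 143 TPM, and the open squares at the left edge mark Cdk6 and Cdkn2c, which had 0 counts in pup 3.

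**Figure D2:**
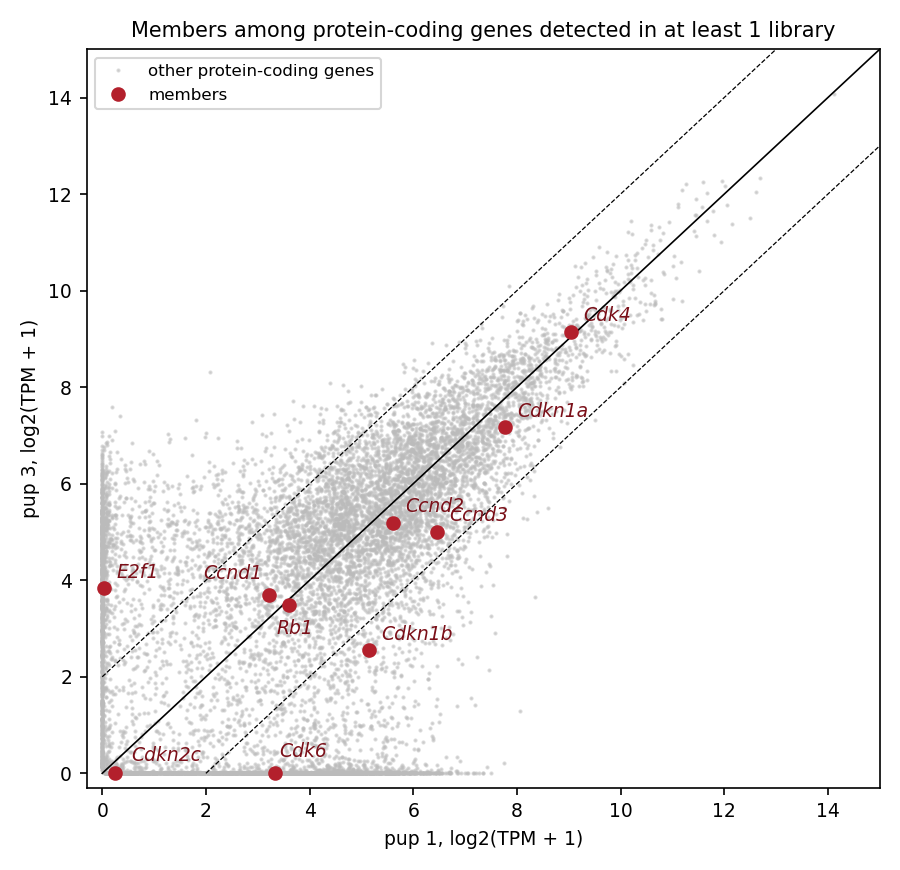
Each point is a protein-coding gene detected in at least 1 library, with log2(TPM + 1) of pup 1 across and of pup 3 upwards. The solid line marks equal levels and the dashed lines a 4-fold difference, and E2f1, Cdk6 and Cdkn1b are the 3 named genes outside the dashed lines.

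The D-type cyclins were all detected in both libraries. Their summed level was 143 TPM in pup 1 and 78.6 in pup 3. Ccnd3 took the largest share of that sum in pup 1 (60.8%, with 33.4% for Ccnd2 and 5.83% for Ccnd1), while Ccnd2 did in pup 3 (45.2%, with 39.7% for Ccnd3 and 15.1% for Ccnd1). By the deposited estimates the leading D-type cyclin per length was thus not the same in the 2 libraries. In pup 3 the deposited credibility bounds of Ccnd2 (33.5 to 35.8 TPM) and Ccnd3 (32.8 to 41.1 TPM) overlapped. The leader in pup 3 is therefore not settled. By counts, which favour long messages, Ccnd2 led in both, with 61.8% and 70.4%.

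Ccnd2 (ENSMUSG00000000184.9, chr6:127125162-127152193 of GRCm38, minus strand) is the D-type cyclin known for its part in the division of cerebellar granule neuron precursors. It had 5554 counts in pup 1 and 3639 in pup 3, or 47.9 and 35.6 TPM (41.7 ± 8.69 TPM, mean ± SD, n = 2). The 1.35-fold higher level in pup 1 kept its direction in each of 8 alternative settings (other scalings and pseudocounts, and coding transcripts only), with log2 ratios from -0.53 to -0.35. A single transcript is listed for Ccnd2, so no split among transcripts enters these values. That model is 5701 nt long in the deposited table and 6330 nt in GENCODE M21, so its TPM depends on the shorter model. Ccnd2 also shares exonic bases with 2 genes on the opposite strand. They are 9330179D12Rik (368 bases), which had 0 counts in both libraries, and Gm43126 (372 bases), for which no count is given.

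Ccnd3 (ENSMUSG00000034165.12, chr17:47505051-47599691, plus strand) had 2891.85 counts in pup 1 and 1125.11 in pup 3. Its level was 87.2 TPM in pup 1 and 31.2 in pup 3 (59.2 ± 39.6 TPM), a 2.79-fold difference and the widest among the D-type cyclins. Of 21 listed Ccnd3 transcripts 3 had counts. The coding transcript Ccnd3-205 carried 63.9 TPM in pup 1 and 29.6 in pup 3. A second coding transcript of 931 nt, Ccnd3-208, had 399.71 counts and 23.2 TPM in pup 1 and 0 counts in pup 3. The retained-intron transcript Ccnd3-206 made up 0.08% of the gene's TPM in pup 1 and 5.1% in pup 3. The deposited credibility bounds of the Ccnd3 level in pup 3 ran from 32.8 to 41.1 TPM, above the deposited estimate itself. The level of these bounds is not stated. Ccnd3-205 shares 359 bases with exons of Bysl on the opposite strand. Bysl had 928.15 counts in pup 1 and 1854.89 in pup 3, so it was higher where Ccnd3-205 was lower.

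Ccnd1 (ENSMUSG00000070348.4, chr7:144929931-144939925, minus strand), a classical target of mitogen and Hedgehog signalling, was the lowest of the D-type cyclins. It had 542.5 counts and 8.36 TPM in pup 1 and 406 counts and 11.9 TPM in pup 3 (10.1 ± 2.48 TPM). By gene the level was 1.42-fold higher in pup 3, but by its coding transcript the order turned. Ccnd1-201, the coding transcript of 3740 nt, stood at 7.06 TPM in pup 1 and 5.45 in pup 3. The retained-intron transcript Ccnd1-202 of 470 nt had 9.98 counts in pup 1 and 43.38 in pup 3, which its short length turned into 15.5% and 54.0% of the gene's TPM. The log2 ratio of Ccnd1 ranged from -0.32 to 0.50 over the settings, so no direction is given for it. Ccnd1 also shares 1100 exonic bases with LTO1 on the opposite strand, all within Ccnd1-201, and LTO1 had 351.5 counts in pup 1 and 1 in pup 3. The sources used here do not say whether counting used strand, so reads of such overlapping pairs cannot be told apart.

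Of the kinases, Cdk4 was the most abundant of the 10 genes and Cdk6 was near the bottom. Cdk4 (ENSMUSG00000006728.8, chr10:127063534-127067920, plus strand) had 9244.22 counts in pup 1 and 8317.41 in pup 3, or 526 and 566 TPM (546 ± 28.1 TPM). Among protein-coding genes it ranked 267 by TPM in pup 1 and 242 in pup 3. The 1.08-fold difference changed direction among the settings, with log2 ratios from -0.07 to 0.58.

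Per length, most of the Cdk4 level did not come from transcripts annotated as coding, although most of its reads did. Coding transcripts made up 33.4% of its TPM in pup 1 and 46.3% in pup 3, or 175 and 262 TPM. By counts they held 4763.74 of 9244.22 in pup 1 and 5531.08 of 8317.41 in pup 3. Among 8102 protein-coding genes detected in both libraries, 11.7% in pup 1 and 12.7% in pup 3 had a coding share under 50%. The full-length coding transcript Cdk4-201 of 2053 nt had the most counts, 2959 in pup 1 and 2930.81 in pup 3. Per length it came to 73.1 and 82.1 TPM, or 13.9% and 14.5% of the gene. The 468-nt retained-intron transcript Cdk4-209 had 1499.55 and 1226.17 counts, and its short length made it the top transcript at 196 and 182 TPM. Cdk4-208, annotated as a target of nonsense-mediated decay, the pathway that removes messages with an early stop codon, had 1464.46 and 1167.71 counts and 85.7 and 77.5 TPM. The shares of these transcripts lay close together in the 2 libraries. The clearest exceptions were the coding transcript Cdk4-202, with 0 counts in pup 1 and 511.39 in pup 3, and the retained-intron transcript Cdk4-207, with 1094.06 and 6.29 counts.

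The Cdk4 sequences show what these annotated forms are, since they split the reads of 1 gene. They are copied from the GENCODE M21 transcripts on GRCm38, plus strand, 5′ to 3′. The Cdk4-201 stretch spans chr10:127064424-127064841 with exon 3 in capitals (136 bases, chr10:127064585-127064720). Cdk4-208 lacks that exon, and the junction brings an in-frame stop codon, in capitals, within 7 bases. The first exon of Cdk4-209 (chr10:127066076-127066236) opens with 25 bases that are intron in Cdk4-201, in capitals, and its next 136 bases are exonic in Cdk4-201 as well.
Cdk4-201: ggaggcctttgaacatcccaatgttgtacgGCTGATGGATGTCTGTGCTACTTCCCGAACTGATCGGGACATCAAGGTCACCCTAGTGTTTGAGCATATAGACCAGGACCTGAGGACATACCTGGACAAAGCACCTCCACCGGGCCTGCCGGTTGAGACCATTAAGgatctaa
Cdk4-208: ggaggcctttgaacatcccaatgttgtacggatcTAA
Cdk4-209: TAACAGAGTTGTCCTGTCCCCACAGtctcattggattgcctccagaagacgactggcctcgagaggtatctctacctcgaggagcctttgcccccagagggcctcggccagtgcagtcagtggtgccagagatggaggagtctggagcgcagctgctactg
Only these 25 bases of Cdk4-209 lie outside the exons of Cdk4-201, so nearly all of its length is sequence the full-length message also has. Cdk4-201 shares 641 bases with exons of Tspan31 on the opposite strand, and Cdk4-209 shares none. Tspan31, a tetraspanin gene, had 1636.78 counts in pup 1 and 4941.59 in pup 3. Its part in the Cdk4 count was not tested.

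Cdk6 (ENSMUSG00000040274.7, chr5:3341485-3531008, plus strand), the partner kinase with an overlapping role, had 689 counts and 9.15 TPM in pup 1 and 0 counts in pup 3. Set against a floor of 3 counts in pup 3 (0.0452 TPM), it was 202-fold higher in pup 1, with the pup 1 level taken as exact. All counts were on the coding transcript Cdk6-202. That model is 3735 nt long in the deposited table and 11525 nt in GENCODE M21, so its TPM depends on the older, shorter model.

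**Figure D3:**
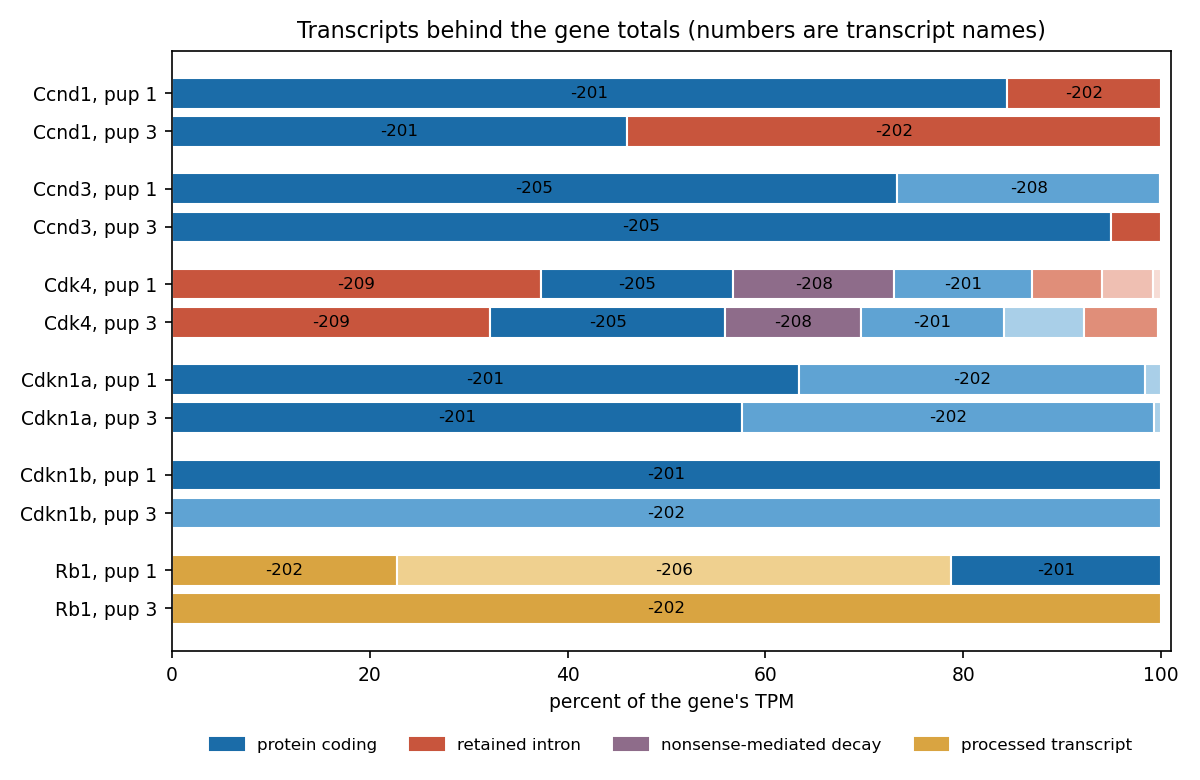
Percent of each gene's TPM taken by its transcripts in pup 1 and pup 3, coloured by annotated type, with shades separating transcripts of 1 type. Cdkn1b moves from Cdkn1b-201 to Cdkn1b-202, Rb1 in pup 3 rests wholly on the processed transcript Rb1-202, and Cdk4-209 and Cdk4-205 are the 2 largest Cdk4 transcripts in both libraries.

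The inhibitors spanned more than the cyclins did, from Cdkn1a at 180 TPM to Cdkn2c near the floor. Cdkn1a (ENSMUSG00000023067.9, chr17:29090976-29100727, plus strand) encodes p21, the inhibitor that p53 induces. It had 6259 counts and 218 TPM in pup 1 and 3442 counts and 143 TPM in pup 3 (180 ± 53.0 TPM). The level was 1.52-fold higher in pup 1, in the same direction under all 8 settings (log2 ratios from -0.78 to -0.54). Among protein-coding genes it ranked 754 by TPM in pup 1 and 1310 in pup 3.

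Reads were assigned to all 3 listed Cdkn1a transcripts in both libraries, with only 54.18 counts in pup 1 and 14.15 in pup 3 on Cdkn1a-203. Cdkn1a-201 had 5180.08 counts in pup 1 and 2723.43 in pup 3, or 138 and 82.3 TPM. Cdkn1a-202, which starts upstream, had 1024.75 and 704.42 counts, or 76.2 and 59.4 TPM. The upstream transcript thus took 35.0% of the gene's TPM in pup 1 and 41.6% in pup 3, with its length set at 748 nt in the deposited table and 922 nt in GENCODE M21. The 250 bases before the starts of Cdkn1a-201 and Cdkn1a-202 are shown because these 2 starts differ in sequence. They come from the RefSeq promoter table (GRCm38.p6, plus strand), in which 7 of the 10 genes have an entry, and lie at chr17:29093519-29093768 before Cdkn1a-201 and chr17:29090729-29090978 before Cdkn1a-202. Capitals mark matches to the GC box GGGCGG.
Cdkn1a-201 start: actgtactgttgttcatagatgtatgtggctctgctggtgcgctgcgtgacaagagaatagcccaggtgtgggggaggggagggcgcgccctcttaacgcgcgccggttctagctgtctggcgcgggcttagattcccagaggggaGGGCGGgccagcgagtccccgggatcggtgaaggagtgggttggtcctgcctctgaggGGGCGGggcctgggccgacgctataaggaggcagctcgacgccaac
Cdkn1a-202 start: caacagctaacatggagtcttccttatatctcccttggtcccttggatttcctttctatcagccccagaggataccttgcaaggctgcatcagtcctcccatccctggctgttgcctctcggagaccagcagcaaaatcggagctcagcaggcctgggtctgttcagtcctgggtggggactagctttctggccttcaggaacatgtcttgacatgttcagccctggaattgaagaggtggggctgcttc
The window before Cdkn1a-201 holds 2 GC boxes, which begin at -104 and -46 from the start, and has 64.8% G and C. The window before Cdkn1a-202 has 54.0% G and C and no GC box. Of 32851 promoter windows of this length 32.7% hold a GC box on either strand, 12.4% hold TATAAA and 33.8% hold CCAAT, and neither Cdkn1a window holds TATAAA or CCAAT. The median window has 52.4% G and C. The matches do not overlap each other, and they are a description of letters and not of binding.

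Cdkn1b (ENSMUSG00000003031.10, chr6:134920401-134925513, plus strand) encodes p27, an inhibitor known to accumulate as neural precursors stop dividing. It had 1625 counts in pup 1 and 394 in pup 3, or 34.2 and 4.85 TPM (19.5 ± 20.7 TPM). The ratio was 7.06-fold by TPM but 3.49-fold by share of counts. The measures part because the models differ in length. All pup 1 reads were given to Cdkn1b-201 of 2393 nt and all pup 3 reads to Cdkn1b-202 of 4552 nt. The models share their coding sequence and differ by 2159 bases that Cdkn1b-201 splices out of its 3′ end (chr6:134922084-134924242). Cdkn1b was past 4-fold in 4 of the 8 settings, and higher in pup 1 in all 8.

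Cdkn2c (ENSMUSG00000028551.10, chr4:109660876-109667189, minus strand), which encodes the INK4 inhibitor p18, had 7 counts and 0.181 TPM in pup 1 and 0 counts in pup 3. Set against a floor of 3 counts in pup 3, Cdkn2c was 2.06-fold higher in pup 1, with the pup 1 level taken as exact. The exact counting interval of the 7 counts ran from 2.81 to 14.4, so this fold is not a lower bound. The interval for the ratio of Cdkn2c count shares, pup 3 over pup 1, reached up to 0.821. Its 7 counts were split as 5.62 on Cdkn2c-202 and 1.38 on Cdkn2c-201, too few to compare the transcripts.

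Rb1 (ENSMUSG00000022105.6, chr14:73183673-73325822, minus strand) encodes the pocket protein that the D-type cyclin kinases phosphorylate. By gene total it looked among the steadiest of the 10, with 11.2 TPM in pup 1 and 10.3 in pup 3 (10.7 ± 0.658 TPM). The counts behind these levels were 281.72 and 58.58, a 4.07-fold difference by share of counts, with deposited posterior SDs of 10.03 and 9.18 counts for the assignment of reads. Its coding transcript Rb1-201, of 27 exons and 4656 nt, had 225 counts (2.38 TPM) in pup 1 and 0 in pup 3. Set against a floor of 3 counts (0.0360 TPM) the coding message was 66.1-fold higher in pup 1, with the pup 1 level taken as exact. The similar gene totals therefore rested on different transcripts.

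The rest of the Rb1 level came from short processed transcripts. Rb1-202 of 411 nt had 16.47 counts in pup 1 and 58.58 in pup 3, making up 22.7% and 100% of the gene's TPM. Rb1-206 of 408 nt had 40.25 counts in pup 1 and 0 in pup 3, making up 56.0% and 0%. Both lie over exons of genes on the opposite strand. Of the 411 bases of Rb1-202, 383 (93.2%) are exonic in Rcbtb2, a neighbouring gene, and all 408 bases of Rb1-206 lie in an exon of Lpar6, a lysophosphatidic acid receptor gene inside an Rb1 intron. The counts of Rcbtb2 were 1420.53 in pup 1 and 5455.42 in pup 3, or 24.6 and 141 TPM, and those of Lpar6 were 837.75 and 0. Each short transcript was thus high in the library in which the opposite gene was high. Rb1-201 shares 105 bases with Rcbtb2 and none with Lpar6. With the use of strand unknown, reads of Rb1-202 and Rcbtb2, and of Rb1-206 and Lpar6, cannot be told apart.

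The sequences show how little of these short transcripts belongs to Rb1 alone. They are from GENCODE M21 on GRCm38, minus strand, 5′ to 3′. The first exon of Rb1-202 (chr14:73287680-73287707) is its only stretch outside Rcbtb2 exons, 28 bases rich in T. The Rb1-206 stretch (chr14:73238601-73239632, 199 bases after splicing) is the part that lies opposite Lpar6 coding sequence, with the 10 bases on each side of its splice junction in capitals.
Rb1-202 first exon: cttttttttttttttttgctttgtattt
Rb1-206 stretch: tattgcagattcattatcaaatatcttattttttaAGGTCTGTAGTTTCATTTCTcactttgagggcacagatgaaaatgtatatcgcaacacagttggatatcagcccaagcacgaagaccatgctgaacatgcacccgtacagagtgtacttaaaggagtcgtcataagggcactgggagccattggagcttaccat
Only reads across that junction would mark Rb1-206 against an unspliced Lpar6 message, and the deposited tables do not separate them.

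**Figure D4:**
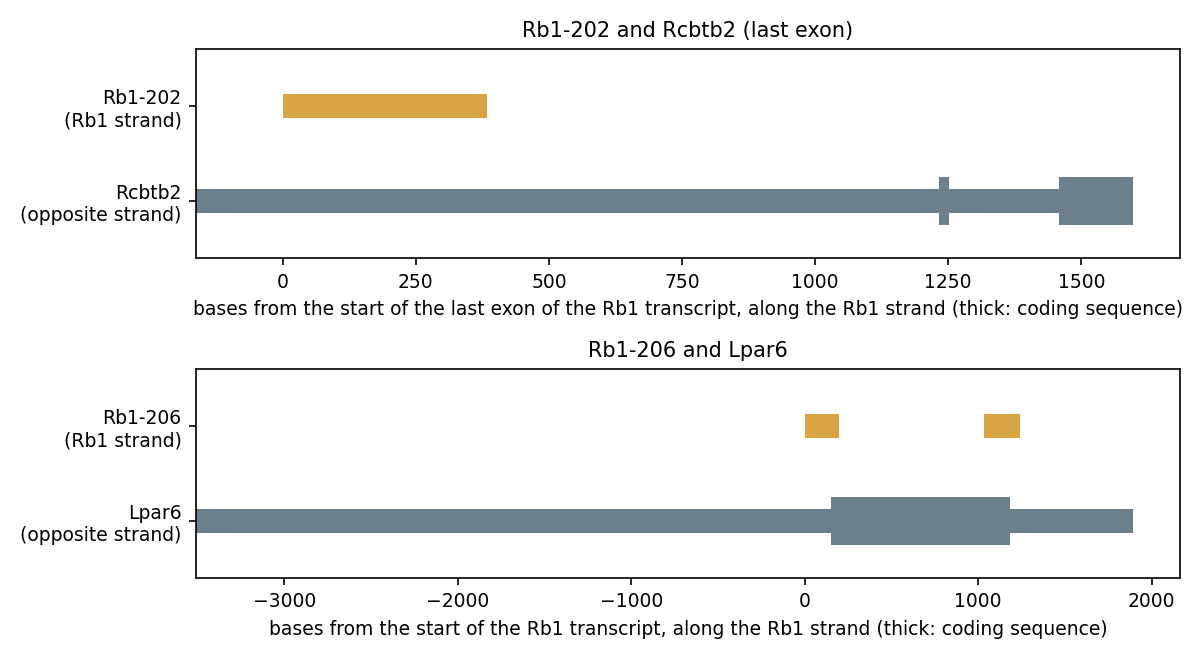
Maps of the last exon of Rb1-202 with Rcbtb2, and of Rb1-206 with Lpar6, as bases along the Rb1 strand from the start of the exon or transcript, with thick bars for coding sequence of any annotated transcript. Both short Rb1 transcripts lie within exons of the opposite gene, Rb1-202 over 383 bases and Rb1-206 over all 408.

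E2f1 (ENSMUSG00000027490.13, chr2:154559407-154569892, minus strand), the activator E2F that Rb1 restrains, had 1 count in pup 1 and 641 in pup 3, or 0.0226 and 13.3 TPM. The ratio of its shares of counts was 758, with a 95% exact counting interval from 136 to 29998, and that interval covers counting error alone. All reads were on the coding transcript E2f1-202. E2f1, with 641 counts in pup 3, and Cdk6, with 689 in pup 1, thus stood at opposite ends, and each had at most 1 count in the other library.

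By mean TPM the order was Cdk4, Cdkn1a, Ccnd3, Ccnd2, Cdkn1b, Rb1, Ccnd1, E2f1, Cdk6 and Cdkn2c. Neighbours in this order had separate values in the 2 libraries in 3 cases only, Cdk4 above Cdkn1a, Cdkn1a above Ccnd3, and Ccnd2 above Cdkn1b. All other neighbours overlapped. They exchanged places between the libraries, except Cdk6 and Cdkn2c, which were both at 0 counts in pup 3. When only coding transcripts were summed, Cdk4 (219 ± 61.2 TPM) overlapped with Cdkn1a (180 ± 53.0 TPM), which was the higher of the pair in pup 1. Rb1 then stood in the ninth place at 1.19 ± 1.68 TPM, and 6 of the 10 genes were detected in both libraries. The most abundant transcript by percent of TPM was the same in both libraries for 4 of the 7 genes detected in both, beside 71.6% of protein-coding genes. Ccnd1, Cdkn1b and Rb1 were the exceptions. By counts it was the same for 5, with Ccnd1 among them. Ccnd2 has a single listed transcript and so could not differ, and the 71.6% was not limited to genes with several transcripts.

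The further genes of the G1/S pathway, 67 in 9 roles, were detected in both libraries for 37, in pup 1 alone for 14, in pup 3 alone for 6 and in neither for 10. Of all protein-coding genes 37.8% were detected in both libraries, and of those detected in at least 1 library 68.1% were. With at least 50 counts in 1 library, 10 of 54 pathway genes were 4-fold or more higher in pup 3 and 14 in pup 1. Over 12300 nuclear genes with such counts the shares were 16.7% and 24.0%. The median log2 ratio of the detected pathway genes was -0.32, near the -0.33 of the 10 genes, beside -0.17 over all detected nuclear genes.

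Among the cyclins E and A and their kinases, which act after the D-type cyclins, 4 of 7 genes were detected in both libraries. Cdk1, the mitotic kinase, was the highest at 108 TPM in pup 1 and 56.7 in pup 3. Ccne2 stood at 19.4 and 22.5 TPM, while its paralog Ccne1 had 0 counts in pup 1 and 833 in pup 3 (27.1 TPM). Ccna2, the S phase cyclin, was at 1.40 and 59.1 TPM. Cdk2, the partner of the E cyclins, went the other way, with 18.5 TPM in pup 1 and 0.301 in pup 3. In pup 3, then, E2f1, Ccne1 and Ccna2 had their high value, Cdk6, Cdk2 and Cdk1 their low one, and Ccne2 was close in both. Differences of 4-fold or more were found in 40.7% of 12300 nuclear genes.

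The CDK activators were detected in both libraries for 5 of 7. The chaperone Hsp90ab1, which with the co-chaperone Cdc37 folds Cdk4, stood at 2097 TPM in pup 1 and 1684 in pup 3, and Cdc37 at 67.3 and 81.9 TPM. Ccnh, the cyclin of the CDK-activating kinase, was level at 85.0 and 80.2 TPM. The phosphatase gene Cdc25b had 2633 counts in pup 1 and 0 in pup 3. Its relative Cdc25a had 1 and 233. Both phosphatases were thus seen in 1 library each.

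Of the 5 other inhibitors 2 were detected, both in both libraries. Cdkn2d (p19), an INK4 inhibitor of postmitotic neurons, stood at 70.1 TPM in pup 1 and 190 in pup 3, and Cdkn1c (p57) at 26.7 and 26.9 TPM. Cdkn2a, Cdkn2b and Cdkn3 had 0 counts in both. So within the INK4 family reads lay almost wholly on Cdkn2d, with the 7 counts of Cdkn2c beside them.

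The partners of Rb1 and E2f1 were detected unevenly. Of the other pocket protein genes, Rbl1 had 0 counts and Rbl2 had 2.02 counts in pup 1 and 1597.05 in pup 3. The E2F and DP genes were detected in both for 3 of 9. Tfdp1, which encodes the DP partner of E2F factors, stood at 30.4 and 11.6 TPM and the repressor E2f6 at 24.1 and 5.58 TPM. The repressor gene E2f4 had 921 counts in pup 1 and 0 in pup 3, E2f5 had 0 and 286, and the atypical E2f7 had 20 and 0. E2f2, E2f3 and E2f8 had 0 counts in both. Of the activating factors E2f1, E2f2 and E2f3, none reached 5 counts in pup 1, and only E2f1 did in pup 3.

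The DREAM complex, which represses cell cycle genes in resting cells, was detected in both libraries for 2 of 5 core genes. Rbbp4 stood at 263 and 196 TPM and Lin37 at 22.8 and 145 TPM. Lin9 had 0 and 606 counts, Lin52 had 1451 and 0, and Lin54 had 256 and 0. Genes of cyclin and inhibitor turnover were detected in both for 10 of 16. Skp1a and Rbx1, shared parts of the SCF ubiquitin ligase, were at 656 and 851 TPM and at 189 and 348 TPM, and Gsk3b, a kinase that marks Ccnd1 for destruction, at 116 and 106 TPM. Skp2, the F-box protein that targets Cdkn1b, had 0 counts in pup 1 and 590 in pup 3. Cks2 (728.48 counts), Cul4a (1430), Dtl (1489) and Fbxo5 (20.34) were seen in pup 1 and at 0 in pup 3, and Fbxo4 was at 0 in both. Skp1a, Rbx1 and Gsk3b were thus present in both libraries and Skp2 in pup 3 alone.

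Of 10 upstream inputs 7 were detected in both libraries. Trp53, the activator of Cdkn1a, stood at 105 TPM in pup 1 and 13.6 in pup 3, while Cdkn1a itself differed 1.52-fold. Its negative regulators Mdm2 and Mdm4 were at 41.8 and 33.5 TPM and at 22.5 and 34.3 TPM. Mycn, a driver of granule neuron precursor division, had 1266 counts in pup 1 and 1 in pup 3. Foxo1 (527 counts) and the antiproliferative gene Btg2 (2382 counts) had 0 in pup 3. Of the cyclin-dependent kinase genes with roles in neurons 4 of 6 were detected in both, with Cdk5 at 117 and 82.2 TPM, Cdk16 at 23.0 and 64.1 TPM and Cdk14 at 29.7 and 25.2 TPM. The Cdk5 activator Cdk5r2 (311 counts) and the cyclin Ccny (195 counts) were at 0 in pup 3. Cdk5, for all its role in neurons, stood below Cdk4 in both libraries.

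**Figure D5:**
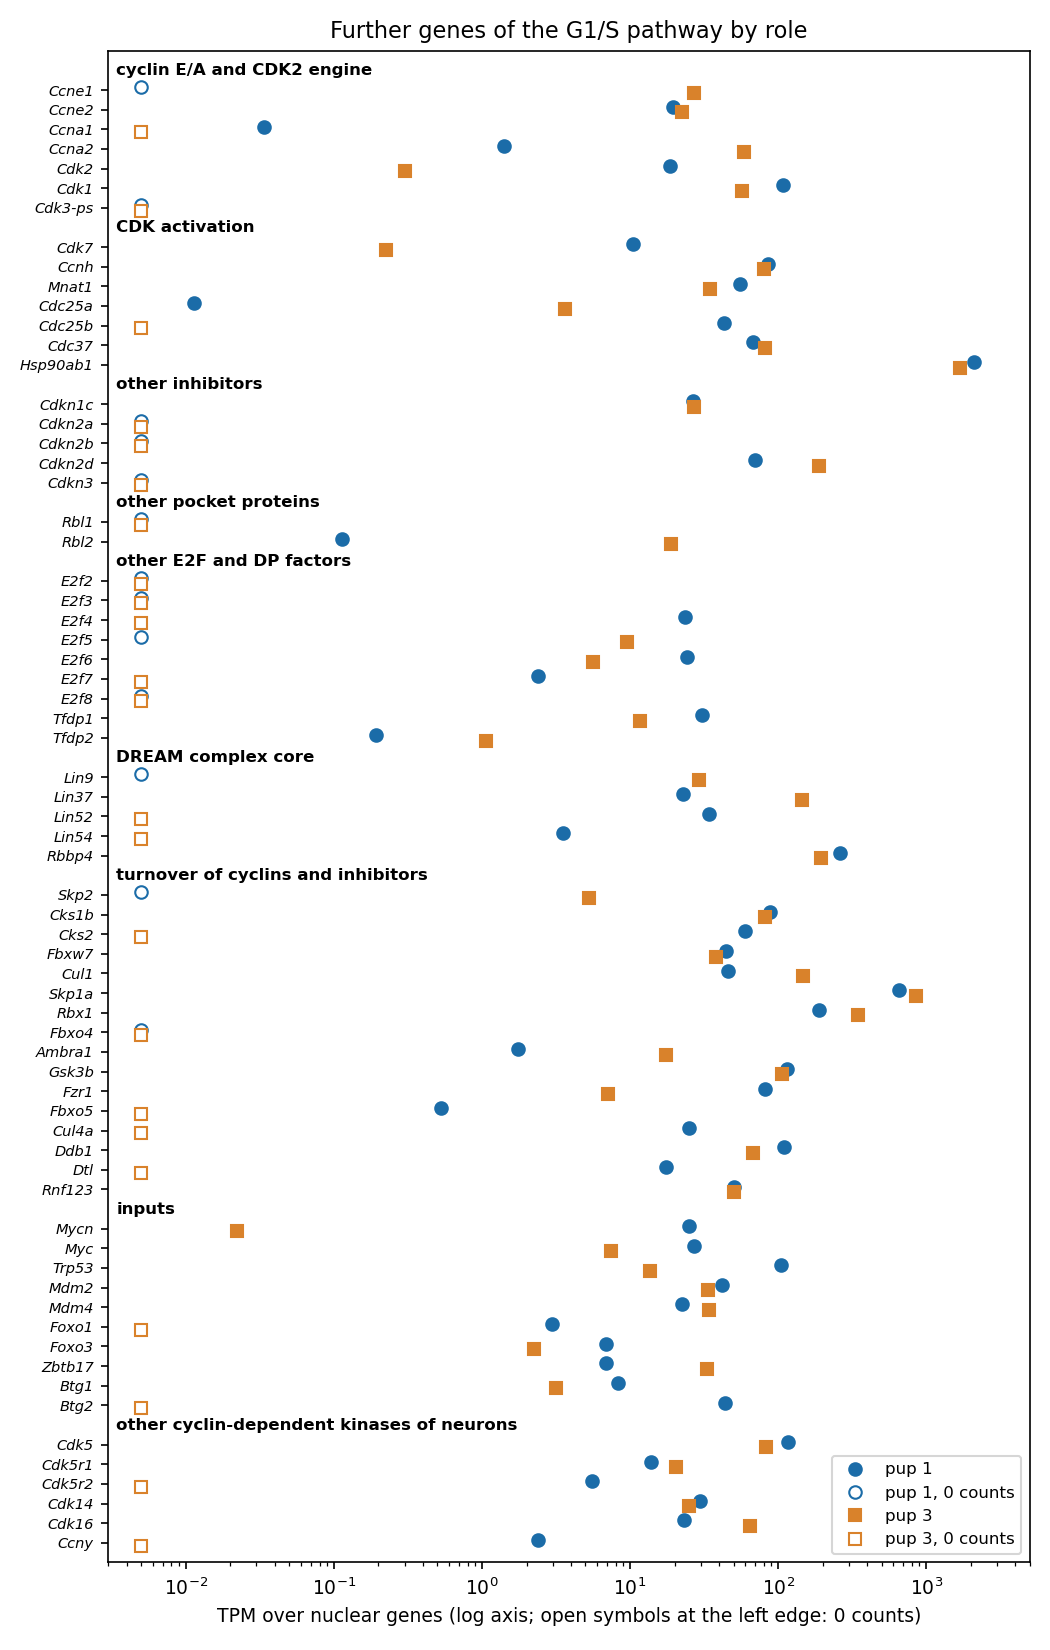
Level of the 67 further G1/S pathway genes in TPM over nuclear genes (log axis), by role, in pup 1 (circles) and pup 3 (squares), with open symbols at the left edge for 0 counts. In every role but the other inhibitors and the other pocket proteins at least 1 gene has its open symbol in 1 library and a filled symbol in the other. Skp1a, Gsk3b and Ccnh lie close in both.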

How the data were processed

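Per the labels, libraries followed a Smart-seq protocol from mirVana-extracted RNA. The authors deposited, per library, a gene and a transcript table made on mm10 with annotation M4. These give, per the file headers, an expected count, TPM, FPKM and, for transcripts, the percent of the gene's TPM. The deposited TPM values cover spike-ins and mitochondrial genes too. They were rescaled here over 43309 nuclear genes. No aligner, quantifier version or strand setting is named in the sources used here.

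Of 43346 mouse gene identifiers, 98.0% matched GENCODE M21 (GRCm38), the source of names and coordinates. Of 50 transcripts of the 10 genes, 45 had the same length there. Detection took 5 counts, ratios a pseudocount of 1 TPM, and folds against 0 counts a floor of 3 counts, which is per library. Counting intervals are exact, at 95%. They cover counting error only.

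All 10 genes are named. Of the 67 further genes, the text names the 3 highest by mean TPM in each role and those detected in 1 library only. Cdk2, Cdk7 and the genes at 0 counts were named after their values were seen. The members and lists were chosen with earlier results of these data known. Scaling factors came from edgeR 4.0.16 (TMM) and DESeq2 1.42.0 on rounded expected counts, under R 4.3.3. Tables were made with pandas 2.3.3. The fold count was tested on simulated data.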

Additional observations from a re-analysis of the deposited data

How the results depend on the processing

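No paired analysis was possible because the labels give 1 group of 2 libraries and no groups to pair. The number of genes detected in both libraries, 7 of 10, came to 8 in pup 3 alone (without replicate 1) and 9 in pup 1 alone (without replicate 2), and the 37 further pathway genes to 43 and 51. The 3 genes past 4-fold became 0 with a pseudocount of 5 TPM, which shrinks ratios of low genes, and 2 by CPM, edgeR TMM or DESeq2 size factors, where Cdkn1b dropped out. The median log2 ratio of -0.33 became -0.49 by CPM, -0.63 by edgeR TMM, -0.65 by DESeq2 size factors, -0.52 with a pseudocount of 0.1 TPM and -0.51 over protein-coding transcripts only, an alternative chosen after seeing the data. The cause was not tested. In genes detected in both libraries, TMM and DESeq2 moved the median log2 ratio by -0.10 and -0.13 from 0.12. By counts, not per length, the share of the D-type cyclins was 7.85% for Ccnd1 in pup 3, 61.8% and 70.4% for Ccnd2 in pups 1 and 3, and 32.2% and 21.8% for Ccnd3. Ccnd2, with the longest message of the D-type cyclins, then led in both libraries. Of 80 alternative values for single genes 34 moved by more than counting error, taken as 1 on the log2 scale where a library had 0 counts, and 46 did not. The log2 ratios of Ccnd1 and Cdk4 changed sign and none of the others did.

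Each library is 1 draw of 13 pg, so 0 counts in 1 library does not show that a gene was silent in the tissue. Short transcripts turn few reads into high TPM, which bears on Rb1-202, Rb1-206 and Ccnd1-202. A short length also raised the TPM of Cdk4-209, which had more reads, 1499.55 counts in pup 1 and 1226.17 in pup 3.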
